A study of Mus musculus with 141 samples.

Results

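Methylation at 7 myelin genes was described in single mouse glioma cells: Ugt8a, Fa2h and Enpp2, whose products act on lipids, and Cnp, Mbp, Mag and Mog, which encode proteins of the myelin sheath. The genes were taken by name, and their measurements are every position of a single-cell CpG table that lies within 1 kb of either end of a gene or inside it. This gave 463 of the table's 1416034 positions, 295 at gene ends and 168 in gene bodies, for 7 of 21631 protein-coding genes. Myelin is the lipid-rich membrane that oligodendrocytes wrap around axons. Its making needs galactosylceramide and other sphingolipids, and proteins that compact the membrane or bind it to the axon. Methylation of CpG-dense sequence at a gene's start is commonly associated with a gene that is not transcribed, while methylation inside transcribed genes is common.

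The cells were IdhR132H mouse glioma cells, a line in which mutant isocitrate dehydrogenase makes 2-hydroxyglutarate, an inhibitor of the TET enzymes that oxidize methylated cytosine. One arm had grown in 1 µM AG-881, also known as vorasidenib, which inhibits mutant IDH1 and IDH2. The other had grown in its vehicle, DMSO, and both cultures lasted over 2 weeks. The series asks whether such inhibitors induce lineage differentiation. Live cells were sorted singly and profiled by joint reduced representation bisulfite sequencing with the enzyme MspI and Smart-seq2, and only the methylation data were analysed here. Both arms carry the mutation, so no cells with normal IDH enter the comparison, and the labels used here name neither the strain nor the tumour of origin. Methylation levels do not check the labelled cell type as RNA markers would.

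The AG-881 arm held 67 cells and the DMSO arm 74, with medians of 89440 and 67749 CpGs called per cell. Cells of an arm came from 1 culture as far as the labels say, so no test was run. The values carry exact Clopper-Pearson 95% intervals, which cover only counting error and take each call as independent. Several calls in a window often come from 1 cell, so intervals over cells would be wider. The libraries formed 8 pools, 1 to 4 with AG-881 and 5 to 8 with DMSO, and no pool held both arms, so pool and treatment cannot be told apart. A CpG with a call in 5 or more AG-881 cells and 5 or more DMSO cells is termed shared. Values over every call also take the other CpGs, so the arms then need not cover the same CpGs. Over all 396065 shared CpGs, 25.4% of calls were methylated with AG-881 and 26.8% with DMSO. Pools 1 to 4 had 23.6%, 24.7%, 28.4% and 25%, and pools 5 to 8 had 27.6%, 25.8%, 26.8% and 26.5%. Pool 1 was the lowest and pool 3 the highest, so the arms overlapped.

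Promoter sequences show what the table could and could not see. RefSeq (GRCm38.p6, the sequence of mm10) gave a promoter, 250 bases before to 50 after a transcript start, at an end of 4 of the 7 genes. They are printed 5′ to 3′ on the gene's strand, and capitals mark the CpGs that have a value in the table in any cell. They lie at chr3:125938603-125938902 (minus strand, Ugt8a), chr11:100574689-100574988 (plus, Cnp), chr7:30914873-30915172 (minus, Mag) and chr17:37023349-37023648 (minus, Mog).
Ugt8a: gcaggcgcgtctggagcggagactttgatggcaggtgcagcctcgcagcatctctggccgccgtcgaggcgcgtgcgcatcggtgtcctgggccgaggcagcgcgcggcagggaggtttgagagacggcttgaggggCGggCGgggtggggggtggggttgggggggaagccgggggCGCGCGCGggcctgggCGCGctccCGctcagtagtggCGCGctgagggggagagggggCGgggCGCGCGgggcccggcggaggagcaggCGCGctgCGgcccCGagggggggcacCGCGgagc
Cnp: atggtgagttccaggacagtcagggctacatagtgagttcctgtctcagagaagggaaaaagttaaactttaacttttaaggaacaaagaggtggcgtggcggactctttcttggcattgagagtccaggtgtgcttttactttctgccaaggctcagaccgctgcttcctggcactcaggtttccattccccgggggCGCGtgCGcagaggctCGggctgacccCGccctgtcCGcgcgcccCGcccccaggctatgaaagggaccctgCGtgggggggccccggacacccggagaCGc
Mag: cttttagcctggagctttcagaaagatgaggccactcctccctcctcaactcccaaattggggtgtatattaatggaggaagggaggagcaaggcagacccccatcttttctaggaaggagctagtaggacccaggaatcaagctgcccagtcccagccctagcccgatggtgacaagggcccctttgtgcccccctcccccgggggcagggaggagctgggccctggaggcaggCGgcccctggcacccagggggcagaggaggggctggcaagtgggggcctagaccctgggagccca
Mog: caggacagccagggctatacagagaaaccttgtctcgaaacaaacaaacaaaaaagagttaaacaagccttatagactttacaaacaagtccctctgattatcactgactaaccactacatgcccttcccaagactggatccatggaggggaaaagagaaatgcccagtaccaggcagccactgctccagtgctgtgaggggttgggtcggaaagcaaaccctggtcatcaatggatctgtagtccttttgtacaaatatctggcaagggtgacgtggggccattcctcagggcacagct
The 4 promoters differed in CpG content and in coverage. The Ugt8a promoter held 40 CpGs, against a median of 7 over the 32851 promoters of the RefSeq table, and 21 of them were in the methylation table. The Cnp promoter held 17 CpGs, 9 of them in the table, but none was called in enough cells of both arms to be shared. Mag and Mog had 3 CpGs each, with 1 and 0 in the table. The MspI site CCGG, which reads the same on both strands, occurred 2 times at Ugt8a, 3 at Cnp, 1 at Mag and 0 at Mog, and was present in 52.8% of all promoters of this length. Promoters of Fa2h, Enpp2 and Mbp were not printed.

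Usable coverage was uneven between the 7 genes. After both strands of a CpG were merged, 260 CpGs lay at the ends and 166 in the bodies, and 102 and 25 of them were shared. Ugt8a (chr3:125865272-125938682, minus strand) had 32 shared CpGs at its start, Fa2h (chr8:111345138-111393821) 43 at its upper-coordinate end, and Enpp2 (chr15:54838901-54952789) 9 at its upper-coordinate end. Cnp (chr11:100574909-100591875, plus strand) had 11 at its start, and Mbp (chr18:82475091-82585637) 7 at its lower-coordinate end. Mag (chr7:30899175-30914922) and Mog (chr17:37010740-37023398), both on the minus strand, had none at either end. The strands of Fa2h, Enpp2 and Mbp were not in the tables used, so their ends are named by coordinate. The Mbp record lists golli-mbp as a synonym, and its outer ends need not be those of the transcript for the myelin protein. An end entered the comparison with all genes when it had at least 50 calls and 10 cells in each arm, which 4 of the 7 genes reached (Ugt8a, Fa2h, Enpp2 and Cnp). No body reached it.

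In both arms the Ugt8a, Enpp2 and Mbp ends stood above those of Cnp and Fa2h. In DMSO cells the order of the ends was Ugt8a with 61.8% of calls methylated, Enpp2 with 58.7%, Mbp with 56.2%, Cnp with 17.1% and Fa2h with 9.83%. The intervals of the first 3 overlapped each other, as did those of Cnp and Fa2h, while those of Mbp (41.2 to 70.5%) and Cnp (10.5 to 25.7%) did not. With AG-881 the order was Mbp at 69.8%, Enpp2 at 46.5%, Ugt8a at 45.2%, Cnp at 24.8% and Fa2h at 6.76%.

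**Figure D1:**
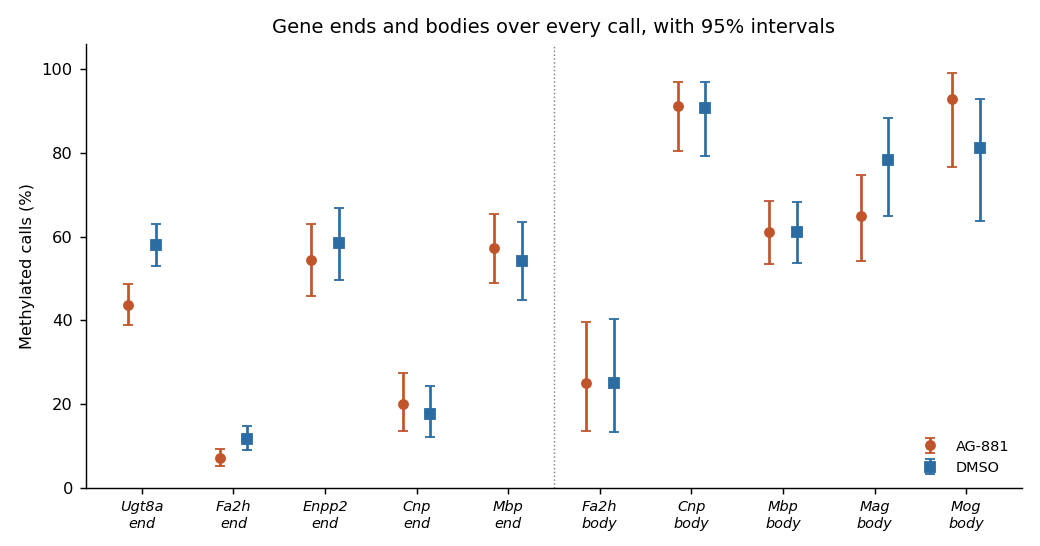
Percentage of methylated calls (y axis, with 95% Clopper-Pearson intervals) over every call, without a minimum of cells per CpG, at 5 gene ends and in 5 gene bodies (x axis), in AG-881 (circles) and DMSO cells (squares). The arms need not cover the same CpGs. The Fa2h and Cnp ends lie at or below 19.9%, and the Cnp body at 90.6% and above.

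Ugt8a encodes the galactosyltransferase that makes galactosylceramide, the main glycolipid of myelin. Its start had fewer methylated calls with AG-881, 104 of 230 from 33 cells (45.2%, interval 38.7 to 51.9%), than with DMSO, 134 of 217 from 30 cells (61.8%, 54.9 to 68.2%). The difference was -16.5 points with an interval of -25.8 to -6.99. Over every call at the 100 CpGs with a value the levels were 43.7% and 58.1%.

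The AG-881 pools of Ugt8a spread more than the DMSO pools. Pools 1 to 4 had 30.9%, 63.9%, 48.9% and 41.9%, from 7 to 10 cells each. Pools 5 to 8 had 68.8%, 62.5%, 61.3% and 58.8%, from 5 to 11 cells. Of the 4 AG-881 pools, 3 were below every DMSO pool, but pool 2 was above 3 of the 4 DMSO pools, so the arms overlapped. Pool 1, the lowest over all shared CpGs too, gave 81 of the 230 AG-881 calls. Without it the difference at the same 32 CpGs was -8.73 points (-19.3 to 1.95), and when shared CpGs were chosen again 13 were left with -6.44 points. Without DMSO pool 7 it was -16.9 points at the same CpGs, but only 6 CpGs were still shared when chosen again, with -0.368 points. Without DMSO pool 8, 15 were left with -11.8 points (-25.7 to 2.5).

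**Figure D2:**
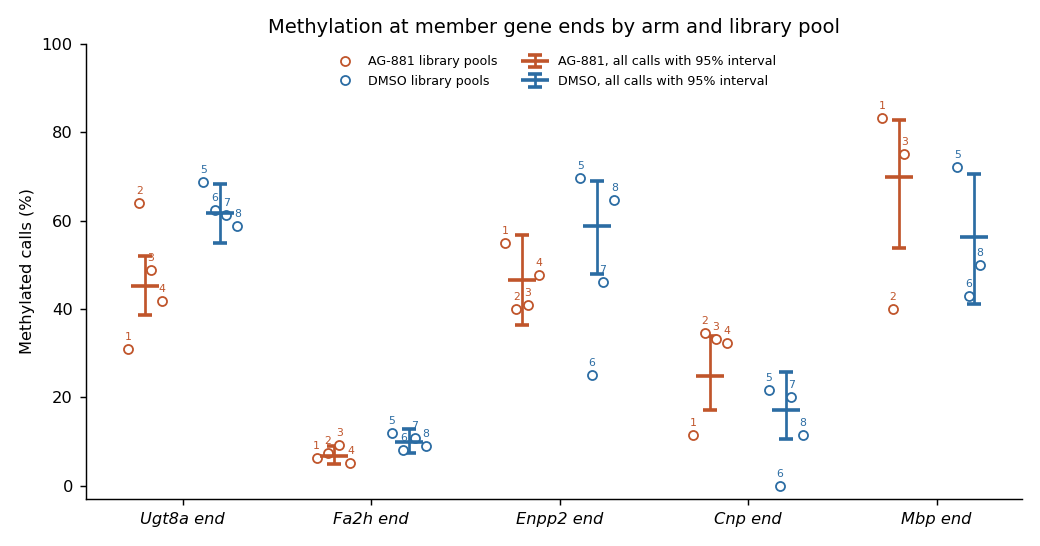
Percentage of methylated calls (y axis) at shared CpGs of 5 gene ends (x axis). Open circles are library pools with at least 5 calls, numbered as in the text, and bars are all calls of an arm with 95% Clopper-Pearson intervals. The pools of the arms overlap at every end shown, and Ugt8a pool 1 lies lowest of its 8 pools at 30.9%.

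The lower level at Ugt8a was not limited to 1 stretch of CpGs. Of its 32 shared CpGs, 24 were lower with AG-881, 6 higher and 2 equal, with a median difference of -15.5 points. A single CpG at -465 bp, outside the gene, was methylated in 1 of 7 AG-881 cells and 5 of 9 DMSO cells. The 7 CpGs from 38 bp before to 23 bp after the annotated gene start had 27.3% and 48.6%, from 7 and 5 cells. They lie in the printed promoter, whose transcript start (125938652) is inside the annotated gene end (125938682), and all 7 are before that transcript start. The 7 CpGs at 195 to 247 bp into the gene had 40% and 62.9%, from 5 and 9 cells. The 17 CpGs at 491 to 781 bp had 53.5% and 65.8%, from 24 and 23 cells. Neighbouring CpGs around the start and at 195 to 247 bp were thus read in mostly the same few cells and are not separate evidence. Those at 491 to 781 bp, with 144 AG-881 and 111 DMSO calls, also shared cells, so the count of lower CpGs is not one of independent sites. Levels rose over these last 3 stretches in both arms, but not steadily with distance. From 400 to 600 bp they were 70.7% and 87.8%, and from 600 to 800 bp 46.6% and 52.9%. Of the 4 places only the stretch at 195 to 247 bp had an interval of the difference that excluded 0 (-43 to -0.667).

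**Figure D3:**
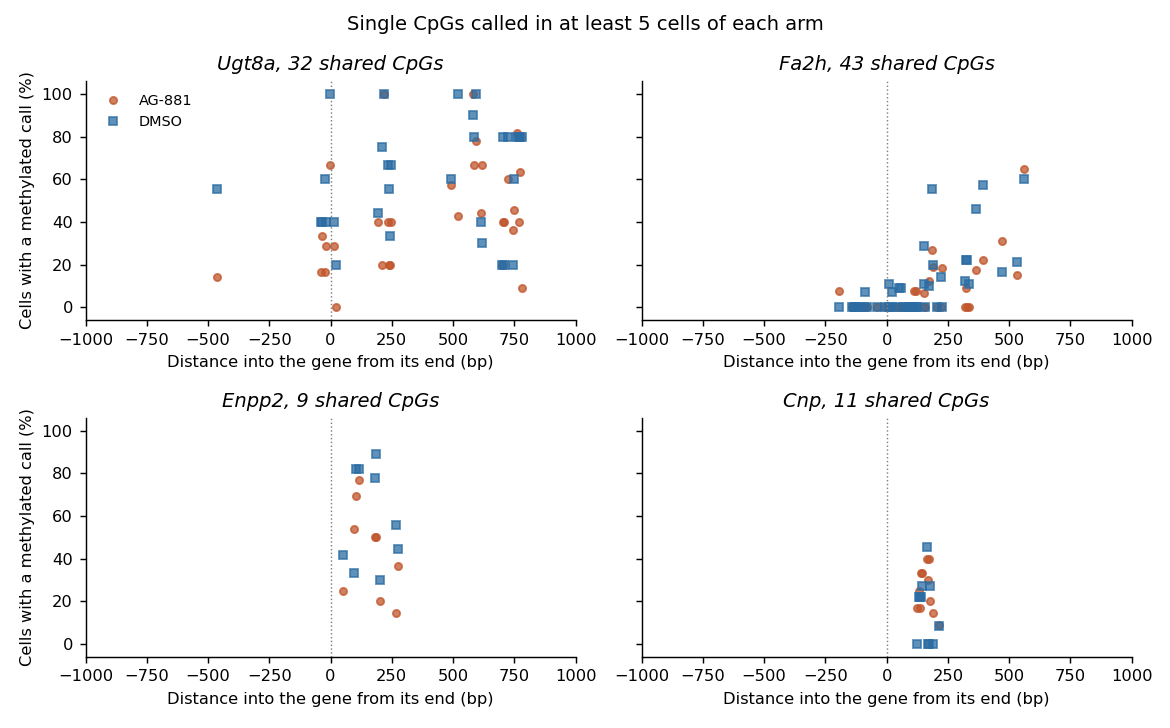
Percentage of cells with a methylated call (y axis) at each shared CpG against its distance into the gene from the annotated end (x axis, bp; negative values lie outside the gene), in AG-881 (circles) and DMSO cells (squares). The Fa2h CpGs near the end lie at or close to 0, and those of Ugt8a cover most of the range.

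Single cells were rarely fully methylated or unmethylated at Ugt8a. Among cells with at least 3 calls there, 27 in each arm, 4 with AG-881 and 0 with DMSO were at or below 20%, and 6 and 9 were at or above 80%. For 0 of 27 cells, a limit of 3 counts of the total allows a share of up to 11.1%. The mean over cells was 49.9% ± 24.4 (SD, n = 27 cells) with AG-881 and 64.8% ± 20.9 (SD, n = 27 cells) with DMSO. The body of Ugt8a, which also holds the lncRNA gene Gm40145, had 3 positions in the table and no shared CpG.

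Fa2h encodes fatty acid 2-hydroxylase, which makes the hydroxylated fatty acids of myelin galactolipids. Its CpG-denser end was mostly unmethylated in both arms, with 42 of 621 calls methylated with AG-881 (6.76%, 4.92 to 9.03%, 54 cells) and 47 of 478 with DMSO (9.83%, 7.31 to 12.9%, 46 cells). The difference was -3.07 points (-6.62 to 0.32). Over every call, where the arms need not cover the same CpGs, it was -4.5 points (-8.11 to -1.04), from 7.09% and 11.6%. Pools ran from 5.1 to 9.26% with AG-881 and from 8 to 11.9% with DMSO, and they overlapped.

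Methylation at Fa2h increased with distance into the gene. In the 200 bp outside the end, 1 of 166 AG-881 calls and 1 of 137 DMSO calls were methylated (0.602% and 0.73%). The first 200 bp inside had 3.97% and 6.76%, the next 200 bp 8.25% and 21.8%, and the stretch from 400 to 600 bp 37.5% and 34.1%. Of these stretches only that from 200 to 400 bp had an interval of the difference that excluded 0, -13.5 points (-25.3 to -2.26) over 9 CpGs. Its CpGs at 318 to 335 bp were each read in 11 AG-881 cells and 8 or 9 DMSO cells. Neighbouring CpGs can share cells, so these calls are not independent. At 226 bp AG-881 was higher, with 18.2% and 0%. At 562 bp a single CpG was methylated in 13 of 20 AG-881 cells and 9 of 15 DMSO cells (65% and 60%). Of the cells with at least 3 calls, 25 of 51 and 20 of 45 had no methylated call. In the Fa2h body 5 shared CpGs had 14.3% (35 calls) and 21.9% (32 calls), and every call there gave 25% in both arms. The difference of -7.59 points at the shared CpGs became 0.649 without DMSO pool 8 and -13.7 without DMSO pool 5 at the same CpGs, and ran from -24.7 to 1.36 points (without DMSO pool 5 and AG-881 pool 4) with the CpGs chosen again.

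**Figure D4:**
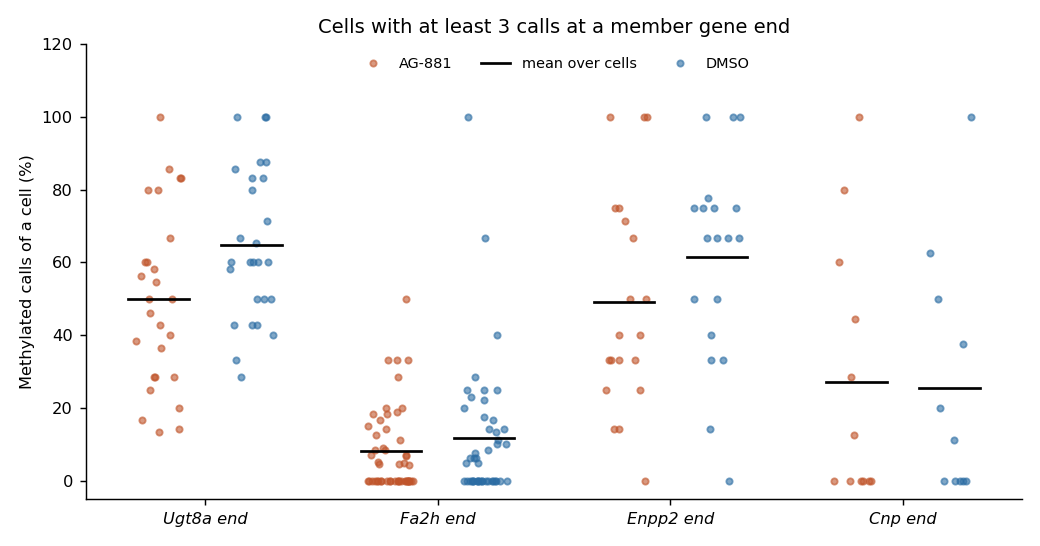
Percentage of methylated calls in each cell (y axis) with at least 3 calls at shared CpGs of 4 gene ends (x axis), with the mean over cells as a line. Cnp and Fa2h hold many cells at 0, and Ugt8a cells spread from 13.3 to 100% with AG-881 and from 28.6 to 100% with DMSO.

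Enpp2 encodes autotaxin, the secreted enzyme that makes lysophosphatidic acid and is made by oligodendrocytes. At 9 shared CpGs between 50 and 277 bp inside its upper-coordinate end, in a window that also holds the lncRNA gene Gm26684, 46 of 99 calls were methylated with AG-881 (46.5%, 36.4 to 56.8%) and 54 of 92 with DMSO (58.7%, 47.9 to 68.9%). The difference of -12.2 points had an interval that included 0 (-26.6 to 2.66). AG-881 was lower at 8 of the 9 CpGs, which 27 and 23 cells covered between them. Several calls came from the same cell, so these are not independent sites.

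The pools of Enpp2 did not separate the arms. Pools 1 to 4 had 55%, 40%, 40.9% and 47.6%, and pools 5 to 8 had 69.7%, 25%, 46.2% and 64.7%. Pool 6, with 12 calls, was the lowest of all, and without it the difference was -17.3 points (-31.8 to -1.84). Without pool 5 it was -6.08 points (-22.7 to 10.8). Over every call at this end the levels were 54.4% and 58.5%, so the CpGs below the minimum of cells brought the arms closer. The Enpp2 body was mostly methylated, at 81.8% of 11 calls and 82.6% of 23.

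Cnp encodes 2′,3′-cyclic nucleotide 3′-phosphodiesterase, an enzyme of non-compact myelin. At its start 28 of 113 calls were methylated with AG-881 (24.8%, 17.1 to 33.8%) and 18 of 105 with DMSO (17.1%, 10.5 to 25.7%), a difference of 7.64 points that included 0 (-3.86 to 18.8). AG-881 was higher at 8 of 11 CpGs and lower at 3. These CpGs lie between 123 and 212 bp into the gene and shared cells, so they are not independent sites. With equal weight per cell the difference was 1.57 points. Every call there gave 19.9% and 17.6%.

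Pools and cells of Cnp varied widely. Pools 1 to 4 had 11.4%, 34.6%, 33.3% and 32.3%, and pools 5 to 8 had 21.6%, 0%, 20% and 11.5%. Pool 1 was low among the AG-881 pools, as at Ugt8a, and pool 6 had only 8 calls, for which that limit of 3 counts allows up to 37.5%. Without pool 1 the difference was 16.2 points (2.31 to 30.2) at the same CpGs. Without pool 4 it was 4.81 points (-7.2 to 17.2) at the same CpGs, and 0 points with the CpGs chosen again. Of cells with at least 3 calls, 6 of 12 with AG-881 and 5 of 11 with DMSO had no methylated call, and 1 in each arm had only methylated calls. The Cnp body, which overlaps the gene Dnajc7, stood at 91.1% of 56 calls and 90.6% of 53, well above the start in both arms.

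Mbp encodes myelin basic protein, which holds the cytoplasmic faces of compact myelin together. The 7 shared CpGs at its lower-coordinate end gave 30 of 43 calls with AG-881 (69.8%, 53.9 to 82.8%) and 27 of 48 with DMSO (56.2%, 41.2 to 70.5%), too few calls for the comparison with all genes. The difference of 13.5 points (-7.84 to 33.5) came from 13 cells in each arm and was 3 points over every call (57.2% of 145 and 54.2% of 118). With a minimum of 2 cells per arm at a CpG it changed sign, to -2.41 points.

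The Mbp body had the most positions of any of the 7 bodies, 86, and its level over every call was close in the arms. Over every call 61.2% of 170 and 61.1% of 180 were methylated, a difference of 0.0654 points (-10.5 to 10.6). At its 9 shared CpGs the difference was 2.58 points (-18 to 23). With other settings or single pools left out it ran from -10.9 to 15.8 points, with the other sign in 4 of 19 alternatives. Pools there ran from 28.6 to 64.7% with AG-881 and from 0 to 76.5% with DMSO. The 9 shared CpGs fell in 4 places that differed sharply from one another. The first had 60% in both. The next had 0 methylated of 12 calls and of 10, from 6 and 5 cells, which allows up to 25% and 30% by the same rule. The third had 100% and 94.1%, and a single CpG had 2 of 7 and 0 of 5 calls methylated, 28.6 points apart with an interval of -29.2 to 71. The body window also holds the pseudogene Rpl21-ps8 and the lncRNA gene Gm52337, and which element the unmethylated place belongs to was not tested.

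Mag and Mog encode membrane proteins of the myelin sheath: Mag (myelin-associated glycoprotein) lies next to the axon, and Mog (myelin oligodendrocyte glycoprotein) on the outermost surface. At the Mag start 4 of 11 calls with AG-881 and 6 of 20 with DMSO were methylated (36.4% and 30%). In the Mag body every call gave 64.8% of 91 and 78.2% of 55, a difference of -13.3 points (-28 to 3.04), and its 8 shared CpGs gave 71% and 77.8%. Pools of the Mag body over every call had 78.6%, 56%, 55.6% and 76% with AG-881 and 70%, 92.9%, 82.4% and 50% with DMSO, the last from 4 calls, so they overlapped. The difference of -6.81 points at the shared CpGs was -0.694 without AG-881 pool 2, -2.56 without DMSO pool 6 and -11.2 without DMSO pool 5 at the same CpGs, and -17.7 without AG-881 pool 4 with the CpGs chosen again. Mog had 1 position at each end. Its body had 92.9% of 28 calls and 81.2% of 32, from 12 and 13 cells, a difference of 11.6 points that included 0 (-8.42 to 30.4). For neither gene could a difference at the start be detected at this depth.

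Against all genes, the Ugt8a and Enpp2 ends were among those with a decrease of at least 10 points, which 2 of the 4 measured myelin gene ends showed. Of 9037 measured gene ends 3.40% were lower by that much, and 0.896% were higher. Most gene ends had hardly any methylation to lose, and the share depended on level. Among the 308 ends with a mean level of 40 to 60%, where Ugt8a and Enpp2 lie, 22.7% were lower by at least 10 points and the median difference was -3.47 points. An interval of the difference below 0, as at Ugt8a, was found at 14.0% of ends of that level and at 5.81% of all ends. An interval above 0 was found at 1.07% of all ends. Among the ends at 0 to 20%, where Fa2h lies, 0.951% were lower by at least 10 points and 4.41% had an interval below 0. Among those at 20 to 40%, where Cnp lies, these shares were 22.7% and 20.4%. Cnp was higher with AG-881, by less than 10 points, and 4.23% of ends at that level were higher by at least 10 points. A decrease of at least 10 points was therefore not rare at the level of Ugt8a and Enpp2. The share of ends with one as large as that of Ugt8a was not counted. The 4 ends had 3 decreases, 1 increase and a median of -7.65 points. Over all ends 50.8% were lower, 30.8% were higher and the median was -0.0154 points. With 4 ends the count by sign cannot be told from that of all genes. Of the 9037 ends, 6854 had a mean level of 0 to 5%, where none of the 4 lies, and the share by sign at their levels was not counted.

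**Figure D5:**
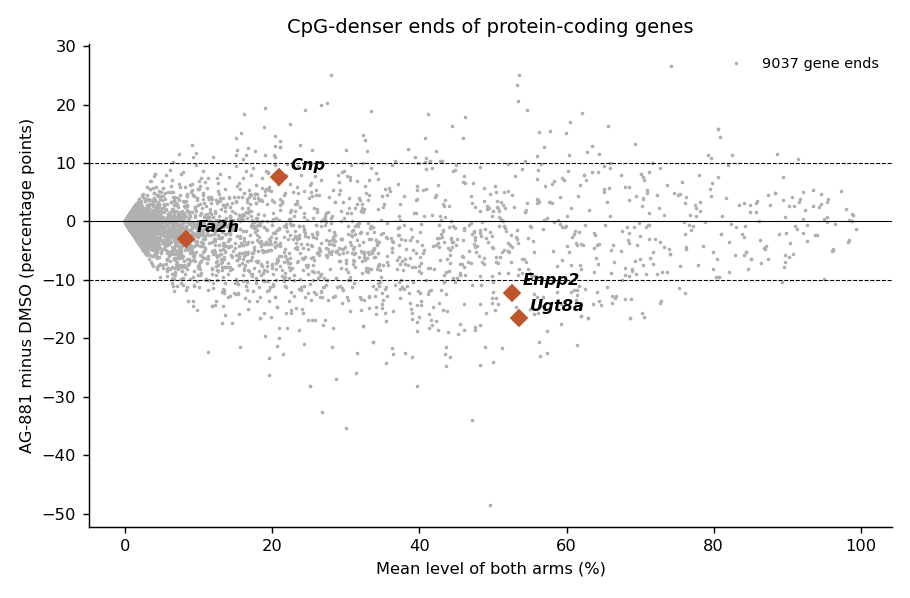
Difference between AG-881 and DMSO cells (y axis, percentage points) against the mean level of both arms (x axis, %) for 9037 gene ends, with the 4 measured myelin genes as diamonds and dashed lines at 10 points either way. Ugt8a and Enpp2 lie below the lower line at levels where 22.7% of ends do so.

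Pooled over the 5 ends with shared CpGs, 22.6% of 1106 calls were methylated with AG-881 and 29.8% of 940 with DMSO, -7.18 points (-11.1 to -3.29). This value weights genes by their calls, and the low Fa2h end gave 621 of the 1106 and 478 of the 940, so the mix of genes differed between the arms. With equal weight per CpG, which removes that difference in mix, it was -6.68 points. Without pool 1 it was -4.69 points at the same CpGs and -2.01 with the CpGs chosen again. The pooled decrease does not hold for each end. Ugt8a had the largest decrease, -16.5 points, and at shared CpGs the only interval of an end that excluded 0. Enpp2 and Fa2h were at -12.2 and -3.07 points, while Cnp and Mbp went the other way, at 7.64 and 13.5 points. Of 4231 measured gene bodies, none of them one of the 7, 6.33% were lower and 3.33% higher by at least 10 points, and 7.09% and 2.22% had an interval below and above 0. Shared CpGs lay in the bodies of Fa2h, Cnp, Mbp, Mag and Mog, and none in those of Ugt8a and Enpp2. Pooled, these bodies had 58.2% of 170 calls and 61% of 154, -2.8 points (-13.8 to 8.3). Mbp gave 52 and Mag 62 of the 170 calls.

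Other genes of myelin formation were taken from 3 lists, and their medians lay within 1 point of 0. Their counts by sign are to be read against the 50.8% of all ends that were lower and the 30.8% that were higher. Of 15 genes of myelin lipid synthesis, 10 had a measured end. The median was -0.419 points, 6 were lower and 3 higher, and none moved by 10 points. Of these ends, 8 were below 5% in DMSO cells. The largest decrease was at Gal3st1, whose product adds sulfate to galactosylceramide to make sulfatide, with 42.2% and 50% (-7.81 points, -22.4 to 6.97). The largest increase was at Sptlc2, a subunit of the enzyme that starts sphingolipid synthesis, with 4.33% and 1.48%.

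Of 21 myelin and axoglial protein genes 9 were measured, with 4 lower, 4 higher and the median at 0 points. Only Pllp, which encodes the myelin membrane protein plasmolipin, was lower by 10 points, at 52.7% of 182 calls and 64.7% of 204 (-12 points, -21.9 to -1.76). Its pools had 50%, 51.7%, 57% and 46.3% with AG-881 and 72.4%, 63.3%, 69.4% and 49% with DMSO, so pool 8 lay within the AG-881 range and the other 3 DMSO pools above it. The largest increase in this list was at Tspan2, with 14.9% and 12.1%. Of 20 regulators of myelination 8 were measured, with 5 lower, 3 higher and the median at -0.539 points. The largest decrease was at Sox10, the transcription factor that activates many myelin genes, with 42.7% and 57.8% (-15.1 points, -29.8 to 0.339). Its pools had 27.3%, 42.1%, 85.7% and 40% with AG-881 and 62.1%, 50%, 65% and 50% with DMSO, so pool 3 lay above every DMSO pool and the other AG-881 pools below. The largest increase was at Sox8, a close relative, with 25.3% and 7.02% (18.3 points, 9.01 to 27.1), and these were the only regulators past 10 points. Of all ends with a mean level of 40 to 60%, where Pllp and Sox10 lie, 22.7% were lower by at least 10 points. Of those at 5 to 20%, where Sox8 lies, 1.74% were higher by that much. The Sox8 pools had 29.8%, 43.8%, 13.8% and 20.5% with AG-881 and 4.55%, 20%, 4.88% and 3.23% with DMSO, and they overlapped through pools 3 and 6.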

How the data were processed

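CpG methylation was measured by single-cell reduced representation bisulfite sequencing in 141 cells. The deposited values are fractions of methylated reads per position and cell (0, 0.5, 1 or missing), made by the authors on mm10 (build per the submitters' processing notes). Which aligner and methylation caller made them was not given in the sources used here. Read depth is unknown. Incomplete bisulfite conversion would raise every level. Columns carry the arm and library pool but no well, so they were assigned to arms.

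Adjacent positions were merged as the strands of 1 CpG, and ties (0.649% of calls) were left out. Of positions inside RefSeq promoters, 98.4% fell on a CpG. Genes were placed with RefSeq's annotation (GRCm38.p6). An end is 1 kb either side of an annotated end, a body lies inside and more than 1 kb from both, and for all genes the end with more positions was used. Intervals of a difference combine the Clopper-Pearson intervals of both arms. Their coverage was tested only on simulated independent calls, which cannot show how well they cover when several calls come from 1 cell. Python 3.11.15, numpy 2.4.6, scipy 1.17.1 and matplotlib 3.10.9 were used. Named genes are the 7 myelin genes and, in each related list, the measured end with the largest decrease and the one with the largest increase. Members, lists and rules were chosen with earlier results of these data known. Alternatives changed the minimum of cells, the window, strand merging and weighting, and left out each pool. Dropping the minimum of cells and leaving pools out at fixed CpGs were added after seeing the data.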

Additional observations from a re-analysis of the deposited data

How the results depend on the processing

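The Ugt8a, Fa2h and Enpp2 ends stayed lower with AG-881 under every alternative that gave a value: -24.3 to -0.368, -4.5 to -0.637 and -17.3 to -2.75 points. The Cnp end ran from -1.09 to 16.2 points and the Mbp end from -2.41 to 23.1. The pooled ends were at -1.99 points with a minimum of 10 cells per arm at a CpG, and ran from -9.39 to -2.01 with single pools left out. Of the 5 ends with shared CpGs, 2 were higher with AG-881 and 1 with at least 2 cells. With at least 10 cells 0 were higher, but Ugt8a and Mbp, with too few calls left, had no value. With single pools left out 1 to 2 were higher, and Mbp had no value without AG-881 pools 1 or 3 or DMSO pool 5 when CpGs were chosen again. Enpp2 was at -5.51 points with equal weight per pool. The pooled bodies ran from -13.5 to 4.97 points and had the other sign in 5 of 24 alternatives. With 1 culture per arm, the spread between cultures is unknown. No paired analysis was possible because pools and cells carry no number that pairs them between the arms.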

Other observations

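Gene ends of other brain cell types were measured in small numbers. Over all ends 50.8% were lower and 30.8% higher. Of 8 astrocyte genes 4 were measured, 2 lower and 1 higher with AG-881 (median -0.671 points). Of 8 oligodendrocyte precursor genes 3 were measured, 1 lower and 1 higher (median 0), and of 8 neuron genes 4, 2 in each direction (median -0.584 points). None of these ends moved by 10 points, against 3.40% of all ends lower and 0.896% higher by that much. Of the measured ends, 2 of astrocyte, 1 of precursor and 2 of neuron genes were below 5% in DMSO cells. Among all 6854 ends with a mean level of 0 to 5%, 0 moved by 10 points. These few ends therefore cannot be told from all genes. None of 6 microglia genes had a measured end.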
